A study of Mus musculus with 2 samples.

Results

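The enzymes of eicosanoid synthesis were examined in the mouse macrophage-like line RAW264.7, whose cells carried either the retroviral vector MSCV alone or MSCV encoding the microRNA miR-155. The 10 genes were Pla2g4a, which supplies the substrate, Ptgs1, Ptgs2, Ptges, Ptges2, Ptges3 and Tbxas1 of the prostaglandin branch, and Alox5, Alox5ap and Lta4h of the leukotriene branch. They were taken by name, and a probeset counted for a gene if the platform annotation gave it that symbol and no other. By this rule 8 of the 10 genes had 13 of the 45101 probesets of the array. Ptgs1 had no probeset in the annotation used here. Ptges3 had 2, both shared with its pseudogene Ptges3-ps, so neither gene is given a value.

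Both groups were kept in DMEM with fetal bovine serum and infected in the presence of polybrene, and the labels name no other stimulus. After infection, puromycin (7 µg/ml) selected the carriers, limiting dilution gave single clones, and RNA from 5 of them was pooled per group. Each pool was measured on 1 Affymetrix array, so a group is a single array of a single pool. The level of miR-155 itself was not measured here. With 1 array per group no test was possible, and no p-value or replicate error can be given. The signals are the deposited probeset intensities on a linear scale, and a log2 ratio is the log2 signal of the miR-155 array minus that of the empty-vector array. Each gene was represented by its brightest probeset, and the 9097 of 18193 genes in the upper 50% of mean log2 signal were kept, which put the signal floor at 25.8. The spread quoted beside a ratio is the local SD, which is a robust SD taken over the log2 ratios of the 500 genes closest in brightness. It describes how ratios scatter between these 2 arrays at that brightness, with any differences between the 2 pools and cultures mixed in. It does not estimate how the ratio of a gene would vary between replicate pools or cultures. Of the 8 measured members, 6 were kept; Ptges and Tbxas1 were not.

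Eicosanoids are short-lived lipid mediators made from arachidonic acid, which cytosolic phospholipase A2 frees from membranes. Cyclooxygenases turn arachidonic acid into prostaglandin H2, from which terminal synthases make prostaglandin E2, thromboxane A2 and the other prostanoids. In the competing branch, 5-lipoxygenase and its activating protein make leukotriene A4, which leukotriene A4 hydrolase turns into leukotriene B4. Macrophages make products of both branches, and in these cells the cyclooxygenase encoded by Ptgs2 is known as the inducible step, raised by inflammatory stimuli.

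The sequences below are given for reference, and their part in the results was not tested. They are the 2 mature arms of miR-155 and the 250 bases upstream of the annotated start of Ptgs2, the member with the largest log2 ratio. Capitals in the arms mark the seed (bases 2 to 8). All are from RefSeq on build GRCm38.p6. The 5p arm, 23 bases long, lies at chr16:84714143-84714165 and the 3p arm, 21 bases long, at chr16:84714182-84714202, both on the plus strand. The Ptgs2 sequence lies at chr1:150099781-150100030 on the plus strand. Its capitals mark a match to the C/EBP motif TTGCGCAA, which was chosen after this sequence had been seen.
mmu-miR-155-5p: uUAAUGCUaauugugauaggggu
mmu-miR-155-3p: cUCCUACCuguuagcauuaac
Ptgs2 upstream: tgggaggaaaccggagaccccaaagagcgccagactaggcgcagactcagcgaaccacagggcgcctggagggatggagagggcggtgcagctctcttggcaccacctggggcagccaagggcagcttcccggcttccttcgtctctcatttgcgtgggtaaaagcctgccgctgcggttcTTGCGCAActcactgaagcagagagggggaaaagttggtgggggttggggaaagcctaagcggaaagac

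Ptgs2, which encodes the inducible cyclooxygenase COX-2, was the member whose log2 ratio lay furthest from 0. Its brighter probeset read 82.5 with the empty vector and 259 with miR-155. The second probeset read 36.5 and 93.8. Both probesets were thus higher on the miR-155 array, with all 4 readings above the signal floor. The brighter one was 3.13-fold higher, with a log2 ratio of 1.65 and a local SD of 0.30, which placed it 5.67 local SDs from the median of genes of like signal. The second was 2.57-fold higher, with a log2 ratio of 1.36 and a local SD of 0.44, a distance of 3.13 local SDs. The ratios of the 2 probesets differed by 0.29, less than 1 local SD of either. The annotation gives both probesets the same transcript record; they check the hybridisation of 1 pool and are not replicates. Of the 9097 genes kept, 48 (0.528%) had a higher ratio than Ptgs2, and of the 500 genes nearest to it in signal 4 did.

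**Figure D1:**
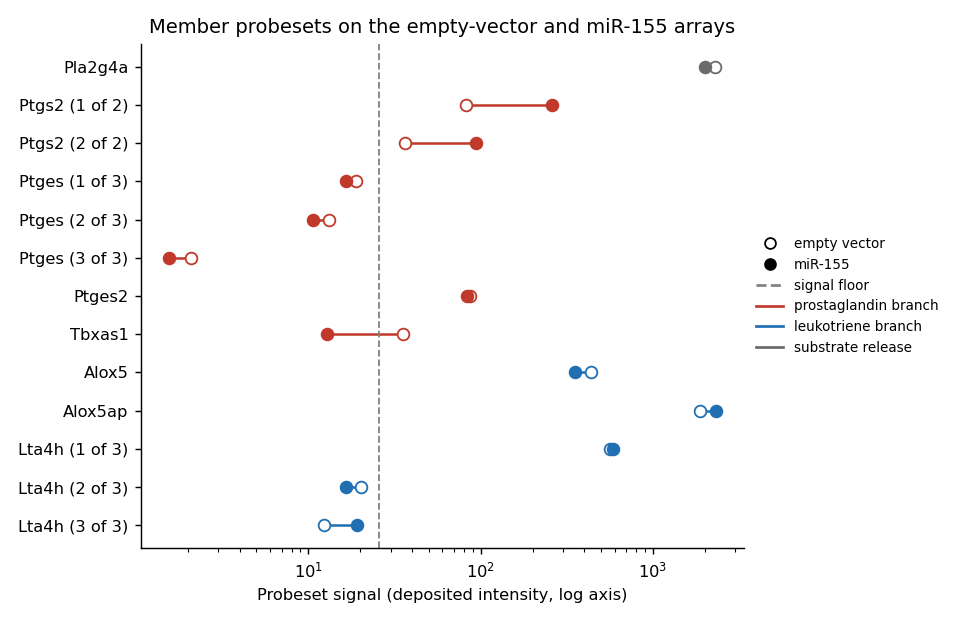
Signals of the 13 probesets of the 8 measured members, on a log axis, with the empty-vector array as open circles and the miR-155 array as filled circles, joined by a line per probeset and coloured by branch. The dashed line is the signal floor of 25.8. Both Ptgs2 probesets lie to the right of the floor with the miR-155 reading higher, Tbxas1 crosses the floor, and all 3 Ptges probesets lie to the left of it.

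Of the 3 measured terminal synthases among the members, only Ptges2 was kept. It lay within 1.5-fold, as did 8068 of the 9097 genes kept. Hpgds, a terminal synthase outside the members, read 2.15-fold higher and is given below. Ptges, the inducible microsomal prostaglandin E synthase that is often paired with COX-2, had 3 probesets, and all 6 readings lay below the floor. The brightest read 18.8 with the empty vector and 16.5 with miR-155, the next 13.2 and 10.7, and the dimmest 2.08 and 1.55. All 3 were lower on the miR-155 array by less than 1 local SD, which at this brightness was 0.73 to 1.82, so a difference in Ptges mRNA was not detectable. Ptges2, a membrane-associated prostaglandin E synthase, read 87.0 and 83.3, with a log2 ratio of −0.06 (local SD 0.36). Its ratio had the opposite sign, 0.06, with the array medians set equal. Tbxas1, the thromboxane A2 synthase, had a single probeset that read 35.4 with the empty vector and 12.8 with miR-155. The second reading lay below the floor, where 47.5% of all probesets of that array read lower, so Tbxas1 is given by its signals alone, with no fold.

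The 3 members of the leukotriene branch were well above the floor by their brightest probesets. Each stayed within 1.5-fold, as did 8068 of the 9097 genes kept. Alox5, the 5-lipoxygenase itself, read 435 with the empty vector and 351 with miR-155, with a log2 ratio of −0.31 and a local SD of 0.20. Alox5ap, the membrane protein FLAP that presents arachidonic acid to the lipoxygenase, read 1873 and 2332, with a log2 ratio of 0.32 and a local SD of 0.14. The enzyme and its activating protein therefore lay on opposite sides of 0, 0.63 apart on the log2 scale. The ratios were −0.19 and 0.44 with the array medians set equal, which adds 0.12 to each and could not bring either across 0. After quantile normalisation, which shifted the median ratio of all genes kept by 0.05, they were −0.27 and 0.37. Alox5ap stood 2.57 local SDs above the median of genes of like signal, and Alox5 1.34 below it. Lta4h, which makes leukotriene B4, read 564 and 582, with a log2 ratio of 0.05 and a local SD of 0.19. Its 2 further probesets were below the floor on both arrays, at 20.3 and 16.6 and at 12.3 and 19.2, and went in opposite directions.

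Pla2g4a, the cytosolic phospholipase A2 that feeds both branches, read 2299 with the empty vector and 1991 with miR-155. Its log2 ratio was −0.21 with a local SD of 0.14, 1.10 local SDs below the median of genes of like signal. In the RefSeq order of protein-coding genes, Pla2g4a is the direct neighbour of Ptgs2 on chromosome 1. The neighbours differed in their ratios by 1.86 on the log2 scale, a difference that multiplying a whole array by a constant does not alter.

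Set against all genes, 1 of the 6 members kept exceeded 1.5-fold in the higher direction with miR-155, and 0 did in the lower direction. Of all genes kept, 5.32% were that much higher and 5.99% that much lower. At 2-fold, the same member was counted, against 1.92% of genes higher, and again 0 members were lower, against 1.43% of genes. A single member in 6 is all that this count shows. The median log2 ratio of the 6 members was −0.01, beside −0.05 over all genes kept. Without Ptgs2, the other 5 lay between −0.31 and 0.32.

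Among the members kept, log2 ratios ran from −0.06 to 1.65 in the prostaglandin branch and from −0.31 to 0.32 in the leukotriene branch. Only 2 of the 6 prostaglandin genes were kept, Ptgs2 and Ptges2, and the midpoint of their log2 ratios was 0.79. All 3 leukotriene genes were kept, with a median of 0.05. The gap of 0.75 between these values rests on Ptgs2 alone, because Ptges2 lies within the range of the leukotriene genes. With no filter, which lets in Ptges and Tbxas1, the prostaglandin median was −0.13 and lay below the leukotriene median of 0.05. Ptgs2 itself exceeded each leukotriene member, by 1.96 on the log2 scale for Alox5, 1.60 for Lta4h and 1.33 for Alox5ap. The wider list given below held 6 further kept genes in the role of lipoxygenases and leukotriene synthases. Of these 6, 1 was at least 1.5-fold higher and 1 as much lower, beside 5.32% and 5.99% of all genes kept.

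**Figure D2:**
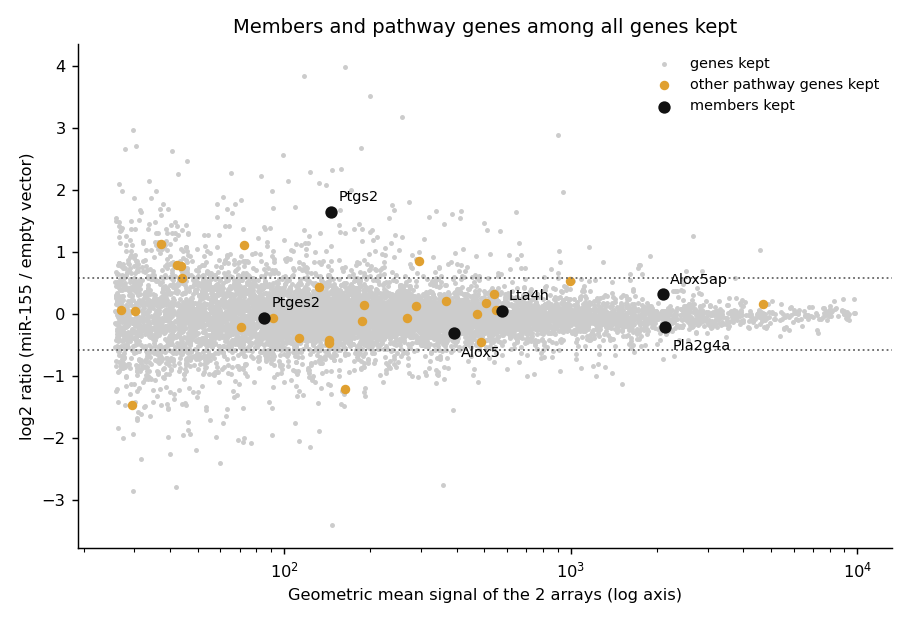
The log2 ratio of the miR-155 over the empty-vector array against the geometric mean signal, for the 9097 genes kept (grey), the 28 kept genes of the wider eicosanoid list (orange) and the 6 members kept (black). Dotted lines mark 1.5-fold in each direction. Ptgs2 stands at 1.65 and the other members lie inside the dotted lines. The cloud widens towards dim genes, and 2 of the orange points (Ltc4s and Ptgir) have a reading below the floor.

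A wider list of 59 genes of eicosanoid metabolism and signalling was then examined by role. Of these, 54 had a probeset of their own and 28 were kept. With miR-155, 5 of the 28 were higher by 1.5-fold or more, 2 were lower by as much and 21 lay within 1.5-fold, beside 5.32% higher and 5.99% lower among all genes kept. The median log2 ratio of the 28 was 0.09, beside −0.05 over all genes kept. The higher genes were Hpgds, Ltc4s, Hpgd, Pla2g5 and Ephx1, and the lower ones Mgst2 and Ptgir. They belong to several steps of the pathway, and no role had more than 2 of them in 1 direction. The roles held only 1 to 10 kept genes, and in breakdown 2 of 5 were higher. Ltc4s and Ptgir each had a reading below the floor. Pla2g5 and Ephx1 were dim too, with local SDs of 0.55 and 0.54. The shares over all genes kept are not matched for brightness. The list was chosen with earlier results of these data known.

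Among further prostanoid synthases, Hpgds, the hematopoietic prostaglandin D synthase, read 49.3 with the empty vector and 106 with miR-155. That was 2.15-fold higher, with a log2 ratio of 1.11 and a local SD of 0.39. Like COX-2, it acts in prostanoid synthesis, directly on the cyclooxygenase product. Cbr1, a carbonyl reductase that can act on prostaglandins, read 181 and 201 (log2 ratio 0.15). Ptgds, the lipocalin-type prostaglandin D synthase, and the prostacyclin synthase Ptgis were not kept.

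The enzymes that conjugate leukotriene A4 with glutathione went both ways. Ltc4s, the leukotriene C4 synthase of myeloid cells, read 25.1 with the empty vector, just below the floor, and 54.8 with miR-155. Mgst2, a microsomal glutathione transferase with leukotriene C4 synthase activity, read 248 and 107, which was 2.32-fold lower, with a log2 ratio of −1.22 and a local SD of 0.27. Its relative Mgst3 read 537 and 561, with a log2 ratio of 0.06. Cotl1, an actin-binding protein that also binds 5-lipoxygenase, was 1.44-fold higher by its brightest probeset (830 and 1196). The other 5 probesets of Cotl1 lay between 0.11 and 0.63. Aloxe3, an epidermal lipoxygenase that read 26.5 and 27.6, was the gene of this role nearest to no change.

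Among breakdown enzymes, Hpgd, the 15-hydroxyprostaglandin dehydrogenase that inactivates prostaglandin E2, read 219 with the empty vector and 398 with miR-155. It was 1.81-fold higher, with a log2 ratio of 0.86 and a local SD of 0.21. The suffix of this probeset marks it as one that can match several transcripts. Its further probeset read 13.1 and 29.6. Ephx1, the microsomal epoxide hydrolase, read 33.4 and 57.2, with a log2 ratio of 0.77 and a local SD of 0.54. Ptgr1, a reductase that inactivates prostaglandins and leukotriene B4, had a log2 ratio of −0.47 (170 and 122), and Ptgr2 one of −0.11 (194 and 180).

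Phospholipases and the enzymes of substrate supply lay on either side of 0, with 5 of the 10 kept above it and 5 below, from −0.39 to 0.79 around a median log2 ratio of 0.02. Of the 10, 1 was higher by 1.5-fold or more and 0 were lower by as much, beside 5.32% and 5.99% of all genes kept. The secreted phospholipase Pla2g5 read 32.1 with the empty vector and 55.6 with miR-155, with a log2 ratio of 0.79 and a local SD of 0.55. Plaa, the phospholipase A2 activating protein, read 471 and 470, nearest to no change. Acsl4, which esterifies free arachidonic acid to coenzyme A, read 483 and 606 (log2 ratio 0.33, with 0.48 and 0.07 in its further probesets).

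Of 13 receptors for prostanoids and leukotrienes, 12 had a probeset of their own and 3 were kept. Ptger4, a receptor for prostaglandin E2, read 478 with the empty vector and 538 with miR-155, with a log2 ratio of 0.17 and 0.57 in its further probeset. Ptgir, the prostacyclin receptor, read 49.1 and 17.7, the latter below the floor. Cysltr1, a receptor for cysteinyl leukotrienes, read 166 and 125, with a log2 ratio of −0.41, and its further probeset gave −0.56. Of the transporters, Abcc4, an exporter of prostaglandins, read 342 and 394 (log2 ratio 0.20), and Abcc1, an exporter of leukotriene C4, read 570 and 417 (−0.45, with −0.65 in its further probeset).

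**Figure D3:**
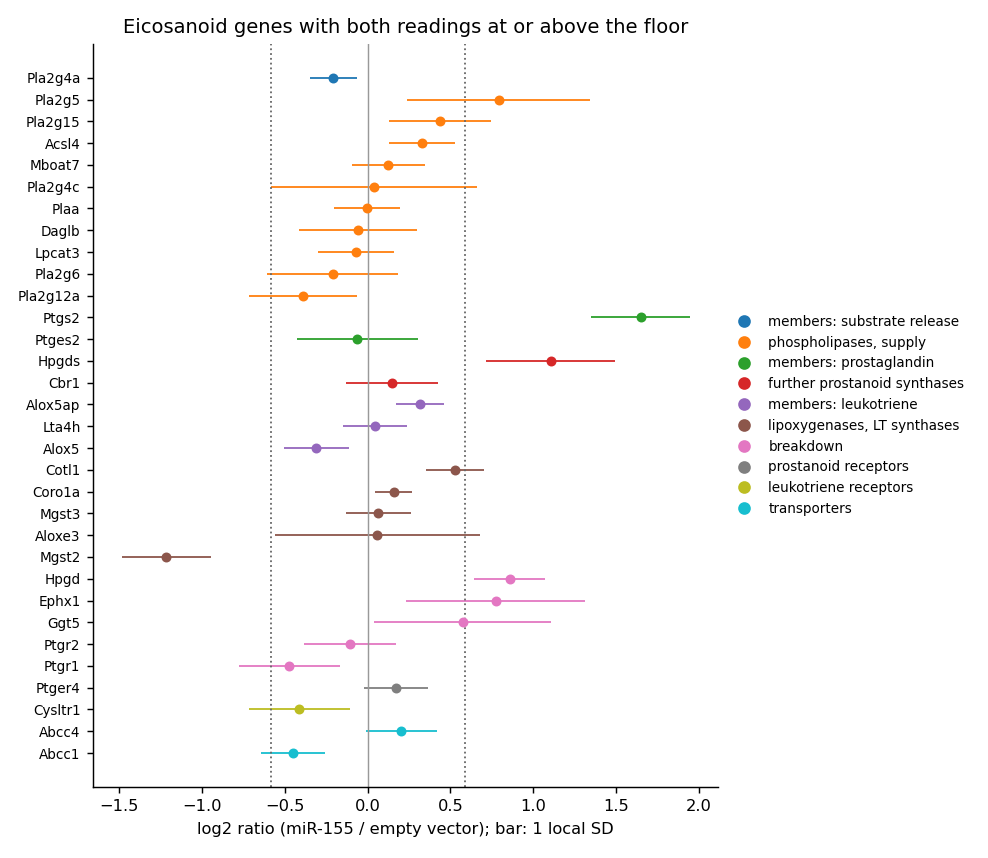
The log2 ratio of the miR-155 over the empty-vector array for the 6 members kept and the 26 kept genes of the wider list whose readings were both at or above the floor, grouped and coloured by role. Bars are 1 local SD and dotted lines mark 1.5-fold. Ptgs2 (1.65) is the highest point and Mgst2 (−1.22) the lowest, while the leukotriene members stay between −0.31 and 0.32.

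The 5 kept genes whose pair of log2 signals lay nearest to that of Ptgs2 were sought over the 2 arrays. They were the proton-sensing receptor Gpr65 (85.3 with the empty vector and 257 with miR-155, at a distance of 0.05 on the log2 scale), the ERK phosphatase Dusp6 (87.6 and 281, distance 0.15), the transcription factor Irf7 (94.4 and 255, distance 0.20), the ADP-ribosyltransferase Parp14 (98.5 and 248, distance 0.26) and the helicase Helz2 (84.8 and 210, distance 0.31). Signals of different probesets are on no common scale, so this nearness describes readings and not amounts of mRNA.

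For the promoters, 9 of the 10 members, all but Alox5ap, had an entry of 300 bases, 250 before and 50 after the annotated start. Pla2g4a had 2 entries. Motifs were searched on both strands over these windows. The C/EBP motif TTGCGCAA was found in Ptgs2 alone among the members with an entry, at −69 to −62 from the start. It was found in 0.183% of 32851 promoters. The motifs were chosen after the Ptgs2 sequence had been seen, so this share does not measure how unusual the match is. The E-box CACGTG was found in Ptgs2 at 17 to 22 bases after the start and in Ptges2, and in 7.15% of all promoters. The CRE half-site CGTCA was found in Ptgs2 at 14 to 18, overlapping the E-box by 2 letters, in Ptges3, and in 20.8% of all. The AP-1 motif TGANTCA (7.81% of all) and the NF-κB core GGGNNNTTC (14.0% of all) were found in Tbxas1 among the members. These are matches of letters and show no binding.

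The labelled cell type was checked against markers. Of 10 macrophage markers, 8 were at or above the floor on both arrays, while Mertk and Cd200r1 were below it on both. Single markers differed between the arrays. Of the 8, the log2 ratio was 1.26 for Cd14, 0.66 for Fcgr1, 0.64 for Ptprc and 0.58 for Itgam. It was −0.71 for Adgre1, −0.36 for Lyz2, −0.25 for Csf1r and −0.01 for Cd68. The summed signal of the 10, carried mostly by the bright Csf1r, Lyz2 and Cd68, was 19850 with the empty vector and 21022 with miR-155, and does not show such differences. Mast cells, platelets and other cell types also make eicosanoids. Of 30 measured markers of mast cells, platelets and megakaryocytes, neutrophils, T cells, B cells and fibroblasts, 3 reached the floor on either array: Itga2b (44.5 and 40.5), Pf4 (30.4 and 53.5) and Ngp (18.7 and 29.6). The summed signal of the 30 was 270 and 280, and all 7 mast cell markers read below 10 on both arrays. The part of these cells, or of the macrophage markers that differed, in the results above was not tested.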

How the data were processed

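The deposited values were probeset intensities on a linear scale, 1 column per array, from biotin-labelled total RNA per the labels' protocols. Their summarisation, background correction and scaling were not given in the sources used here, and no detection calls were used. The intensities were used as deposited, with no offset. Array medians were 15.4 (empty vector) and 14.1 (miR-155), and setting them equal raises every log2 ratio by 0.12. Probesets were named by the platform annotation with symbols updated through Entrez identifiers to RefSeq (0 changed): 34945 had 1 symbol, 932 several and 9160 none, beside 64 controls. Genes with a reading below the floor are given by signals alone. Calculations used Python 3.11.15, numpy 2.4.6 and pandas 2.3.3, and the local SD and the fold counts were tested on simulated data. Members, lists and promoter motifs were chosen with earlier results of these data known; the motifs were chosen after the Ptgs2 sequence had been seen. Named are all members, listed genes kept at or beyond 1.5-fold, the listed gene of each role nearest to no change, and the 5 genes nearest to Ptgs2; other listed genes that are named were chosen after their values were seen. In all, 8 alternative settings were tried.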

Additional observations from a re-analysis of the deposited data

How the results depend on the processing

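No paired analysis was possible because each group had 1 array. Ptgs2 was higher on the miR-155 array under every alternative that gave it a value. Its log2 ratio was 1.22 with an offset of 50 and 1.51 to 1.77 under the others. No filter, plain probesets only and readings raised to the floor could not alter it and left it at 1.65. Equal medians added a constant 0.12, and an offset cannot change the direction. In the upper 25% of genes Ptgs2 is not kept, so 0 members were at least 1.5-fold higher and the prostaglandin branch had no value. With no filter, with the mean of all probesets and with plain probesets only, Tbxas1 entered and 1 member was at least 1.5-fold lower; the prostaglandin median was then −0.127, −0.0625 and −0.0625. The listed pathway genes at least 1.5-fold higher and lower numbered 1 and 0 in the upper 25% and 16 and 5 with no filter. They numbered 2 and 1 with the offset, and 7 and 2 both with equal medians and with quantile normalisation. The mean of all probesets gave 6 and 3, plain probesets only 4 and 2, and readings raised to the floor 5 and 2. Over all genes kept these counts were 484 and 545, against 110 and 95 in the upper 25% and 3111 and 3848 with no filter. With the offset they were 196 and 189, with equal medians 695 and 376, and with quantile normalisation 569 and 465. For the mean of all probesets they were 696 and 914, for plain probesets only 513 and 634, and for readings raised to the floor 459 and 511. The offset moved Ptgs2 by more than 1 local SD. Of 73 values under the alternatives for the other 5 members kept and for Pla2g5, Hpgds, Mgst2, Hpgd and Ephx1, 70 moved by less than 1 local SD. The exceptions were Hpgds (0.65) and Mgst2 (−0.93) with the offset, and Hpgd with plain probesets. That setting leaves Hpgd its dimmer probeset, which read 13.1 with the empty vector, below the floor, and 29.6 with miR-155. Many of the 73 values could not move, so this count is no measure of stability. The filter settings and raising readings to the floor leave these genes' ratios as they are. The probeset settings do not alter a gene with 1 plain probeset, and equal medians add 0.12 to every ratio. Without detection calls, readings near or below the floor, among them those of Ptges, Tbxas1, Ltc4s and Ptgir, have no known precision.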
